A study of Mus musculus with 4 samples.

Results

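The carbonic anhydrase gene Car8 and 7 relatives, Car2, Car4, Car9, Car10, Car11, Car12 and Car14, were described in engineered neural tissue of the mouse with and without prior electrical stimulation. They are 8 of the 23874 genes in the count table and were picked by symbol, with earlier results of the same comparison known, so their own fold changes are given as a description without a p-value. The EF group was neurosphere-derived tissue in Matrigel, exposed to a field of 150 mV/mm for 30 min daily over 3 days and sampled after 7 more days of culture. The noEF group was the same kind of Matrigel culture without stimulation, also with 7 days of further culture, and the titles name day 7 for both groups. The 3 days of stimulation were given to EF only. The field therefore cannot be told apart from any difference in total culture time between EF and noEF. Both were grown in DMEM/F12 with N2, B27 and 20 ng/ml basic fibroblast growth factor, and the labels give neither the mouse strain nor the number of animals or cultures behind the neurospheres. The table holds 2 libraries per group, where the labels state 3 replicates, and nothing says that they came from separate cultures, so the errors measure only the spread between these libraries, which may be technical. The sample labels name both groups as engineered tissue, whereas the series text speaks of neural stem cell suspensions as the control.

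Carbonic anhydrases are zinc enzymes that interconvert carbon dioxide and bicarbonate, and they work beside bicarbonate and proton transporters to set the pH in and around cells. In brain, Car2 is the abundant cytosolic form of oligodendrocytes, astrocytes and choroid plexus, while Car4, Car9, Car12 and Car14 sit at the cell surface with the catalytic domain outside. Car8, Car10 and Car11 lack zinc-binding histidines of the active site and do not catalyse the reaction. Car8 binds the inositol trisphosphate receptor Itpr1 and lowers its affinity for the ligand, and mice without it are ataxic, while Car10 binds neurexins at synapses.

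Total counts were 33748880 to 34554537 per library, so 1 count was worth 0.0280 to 0.0307 CPM (counts brought to a common library total after TMM scaling). Across the table, 1258 of 14263 tested genes differed between EF and noEF at an adjusted p under 0.05 in edgeR's quasi-likelihood test, 546 higher (3.83%) and 712 lower (4.99%) in EF. All 8 neural stem cell markers (Nes, Sox2, Pax6, Vim, Fabp7, Hes5, Sox1 and Msi1) were detected in every library. Their summed level was 5008 and 5313 CPM in EF and 6778 and 6397 CPM in noEF, most of it Fabp7 and Vim. Fabp7 was at 2281 and 2449 CPM in EF and 3553 and 3157 CPM in noEF. By edgeR 2 of the 8, Fabp7 and Sox1, were lower, against 4.99% of all tested genes, and 0 were higher. At an unadjusted p under 0.05, 4 were lower and 0 higher. The median log2 fold change was -0.25, and 3 were above 0 (Nes 0.14, Pax6 0.12 and Msi1 0.012). The microglial markers Aif1, Csf1r, Cx3cr1 and Tmem119, the endothelial marker Cdh5, the choroid plexus marker Ttr, the Purkinje cell marker Pcp2 and the neuronal marker Stmn2 had no count in any library. Summed neuronal markers were at 601 and 578 CPM in EF and 491 and 563 CPM in noEF, most of it Map2 (529 and 497 CPM in EF, 411 and 481 CPM in noEF). Of the 7 tested neuronal markers 3 had a log2 fold change above 0, with a median of -0.18, and Dcx (-0.46) and Snap25 (-0.53) were among those below 0. Summed choroid plexus markers were at 9.44 and 8.94 CPM in EF and 6.58 and 7.29 CPM in noEF, most of it Otx2 (8.21 and 8.08 CPM in EF, 5.78 and 5.26 CPM in noEF). Of the 4 tested 2 were above 0, with a median of -0.14, and Kcnj13 was at -3.48. No neuronal or choroid plexus marker passed by edgeR, where 1 of each list was higher and 1 lower at an unadjusted p under 0.05. Summed microglial markers were at 0.224 and 0.430 CPM in EF and 0.277 and 1.16 CPM in noEF. The part of any cell type marker in the values that follow was not tested. In bulk RNA, fewer cells of a type and less RNA per cell cannot be told apart.

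Of the 8 members, 7 had at least 1 count and 6 passed the filter on low counts, Car4 and Car9 being the exceptions. Car8 was 1.95-fold higher in EF and was the single member past the threshold. The other 5 tested members, Car2, Car10, Car11, Car12 and Car14, did not pass. That is 1 of 6, higher, where 8.82% of all tested genes passed (3.83% higher and 4.99% lower), and nothing is read from this share because the members were chosen with this contrast known. The median log2 fold change of the 6 was 0.41, beside 0.0087 for all tested genes. In 5 of the 6 the EF and noEF libraries did not overlap, which held for 54.4% of all tested genes.

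**Figure D1:**
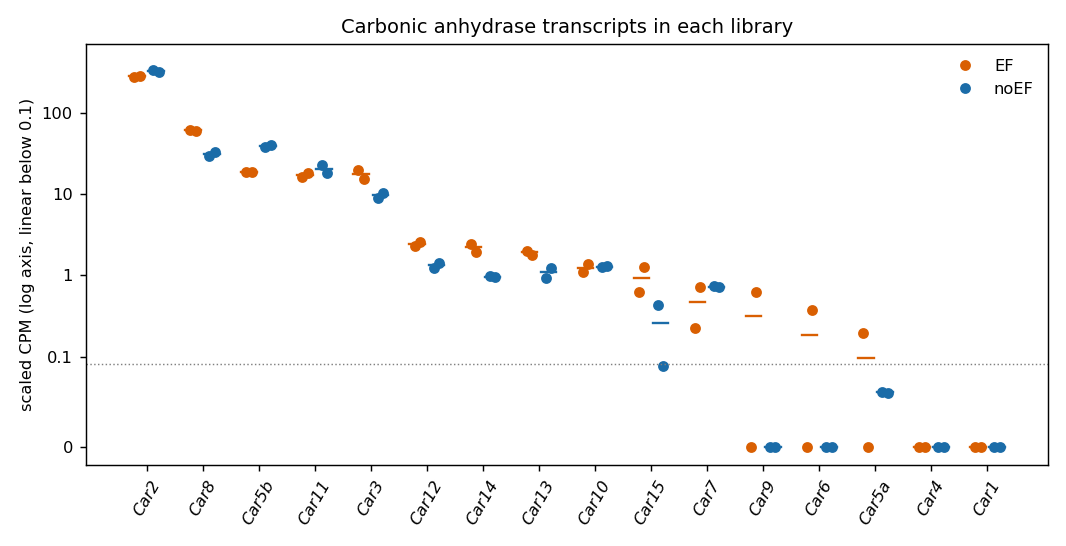
Scaled CPM of the 16 carbonic anhydrase genes in each library (y axis logarithmic above 0.1 CPM), with EF points left of noEF points, short lines for group means, and a dotted line at the level of 3 counts. Car2 was at 277 to 337 CPM in every library, Car8 was at 59.6 and 61.7 CPM in EF and 29.7 and 32.6 CPM in noEF, and Car4 and Car1 were at 0.

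Car8 (ENSMUSG00000041261, GRCm38 chromosome 4, 8143362 to 8239041, minus strand, protein coding) had 2204 and 2081 counts in EF 1 and EF 2 and 966 and 1097 counts in noEF 1 and noEF 2. On the CPM scale these were 61.7 and 59.6 in EF and 29.7 and 32.6 in noEF. Both EF libraries stood well above both noEF libraries, and the replicates within a group lay close together. Car8 averaged 60.7 ± 1.49 CPM in EF libraries and 31.2 ± 2.08 CPM in noEF libraries (n = 2 per group, SD), and its log2 fold change was 0.96 (SE 0.11). Ranked by log2 fold change from the top, Car8 was at place 431 of the 14263 tested genes.

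The ratio of Car8 to Car2 counts within a library, which no scaling of libraries can move, was 0.223 and 0.210 in EF and 0.0881 and 0.102 in noEF. As a share of the summed counts of all 16 carbonic anhydrase genes, Car8 took 15.4% in EF 1 (95% Wilson interval 14.8 to 16.0) and 14.7% in EF 2 (14.1 to 15.3), against 6.73% in noEF 1 (6.33 to 7.15) and 7.63% in noEF 2 (7.20 to 8.07). These intervals cover counting error only, not the spread between libraries. The share is not corrected for gene length.

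Car8 is known as a gene of cerebellar Purkinje cells, so the 6 other Purkinje cell markers of a fixed list stand beside it. Pcp2 had no count, and Calb1, a calcium buffer, was at 0.0560 and 0.258 CPM in EF and 0 in both noEF libraries. Pcp4, a calmodulin-binding peptide gene, was at 0.504 and 1.72 CPM in EF and 3.04 and 3.69 CPM in noEF and did not pass (edgeR adjusted p = 0.0772). The summed level of the 6 was 63.8 and 68.8 CPM in EF and 54.2 and 58.5 CPM in noEF, most of it from Rora and Gad1, and 0 of the 4 tested were past the threshold by edgeR, against 8.82% of all tested genes, with Rora higher and Pcp4 lower at an unadjusted p under 0.05. Rora was at 44.9 and 49.7 CPM in EF and 35.4 and 38.0 CPM in noEF, and Gad1 at 17.8 and 16.2 CPM in EF and 15.0 and 16.7 CPM in noEF. The part of Purkinje cell markers in the Car8 values was not tested.

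Neither of the other acatalytic members passed the threshold. Car11 (ENSMUSG00000003273, chromosome 7, 45699843 to 45704682), a secreted relative of Car10, had 16.2 and 18.0 CPM in EF and 22.7 and 18.3 CPM in noEF. EF 2 and noEF 2 were nearly level, and the groups were separated by less than the distance between the noEF replicates. Its log2 fold change was -0.26 (SE 0.16). Car10 (ENSMUSG00000056158, chromosome 11, 93098028 to 93601749), the neurexin ligand, was near 1 CPM throughout, at 1.09 and 1.38 CPM in EF and 1.26 and 1.31 CPM in noEF. Its groups overlapped and the log2 fold change was -0.058 (SE 0.56), with the opposite sign under scaling by library totals (0.028) and without EF 1 (0.10). Whether Car8 differed from Car10 or Car11 in its response was not tested.

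Car2, the cytosolic high-activity enzyme (ENSMUSG00000027562, chromosome 3, 14886273 to 14900770), had the highest level per length of all carbonic anhydrases in both groups. It had 277 and 284 CPM in EF and 337 and 321 CPM in noEF, or on average 280 ± 4.92 CPM in EF and 329 ± 11.1 CPM in noEF (n = 2 per group, SD). The groups did not overlap, but the difference was small, a log2 fold change of -0.23 (SE 0.081), and it was not past the threshold. Car2 took 69.3 ± 0.740% of all carbonic anhydrase counts in EF and 75.7 ± 0.919% in noEF (n = 2 per group, SD).

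Oligodendrocytes and astrocytes, the glia known to contain Car2, were followed through 8 markers each. The summed oligodendrocyte markers were at 246 and 212 CPM in EF and 249 and 243 CPM in noEF, and 0 of 7 tested were past the threshold by edgeR, against 8.82% of all tested genes, with 1, Mobp, lower at an unadjusted p under 0.05. The summed astrocyte markers were at 5570 and 5302 CPM in EF and 6102 and 6322 CPM in noEF. By edgeR 4 of 8 (Gfap, Gja1, Aldoc and Aqp4) were lower, against 4.99% of all tested genes, and 0 were higher. The largest part of the sum, Slc1a3, went the other way, at 2992 and 2733 CPM in EF and 2484 and 2638 CPM in noEF. Its log2 fold change was 0.16 and did not pass. Aldh1l1 was also above 0 (0.030), and the median of the 8 was -0.30. The part of either marker list in the Car2 values was not tested.

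The cytosolic and mitochondrial carbonic anhydrases outside the 8 members held a rise and a fall that passed the test. Of the 8 further family genes, 5 were tested, 1 rose, 1 fell and 3 did not pass, where 3.83% of all tested genes rose and 4.99% fell. Car3 (ENSMUSG00000027559, chromosome 3, 14863512 to 14872523), a cytosolic isozyme of low activity that is abundant in muscle and fat, had 19.6 and 15.4 CPM in EF and 8.94 and 10.4 CPM in noEF. It rose 1.81-fold, or 0.86 on the log2 scale (SE 0.18, edgeR adjusted p = 0.0102). Every EF library stood above every noEF library, and EF 1 was the highest of the 4. Without EF 1 the log2 fold change was 0.67 and no longer passed (edgeR adjusted p = 0.0915), the highest p of its 12 alternatives, the lowest being 1.18e-04.

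Car5b (ENSMUSG00000031373, chromosome X, 163976822 to 164027997), a carbonic anhydrase of the mitochondrial matrix, moved the other way. It had 18.9 and 18.6 CPM in EF and 37.4 and 39.6 CPM in noEF. The replicates were tight and the groups lay about a factor of 2.05 apart, with Car5b lower in EF at -1.04 on the log2 scale (SE 0.13, edgeR adjusted p = 2.23e-04). It passed under each of the 12 alternatives, with adjusted p-values from 1.59e-10 to 7.56e-04. Its mitochondrial paralogue Car5a had 7 and 0 counts in EF and 2 and 2 counts in noEF and was too low to test. Within a library the ratio of Car3 to Car5b counts was 1.04 and 0.831 in EF and 0.239 and 0.263 in noEF.

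Car13 and Car7, both cytosolic, were low and did not pass. Car13 was at 2.02 and 1.81 CPM in EF and 0.922 and 1.25 CPM in noEF, which is 0.81 on the log2 scale (SE 0.51, edgeR adjusted p = 0.363). Car7, known from neurons, was at 0.224 and 0.716 CPM in EF and 0.737 and 0.714 CPM in noEF (edgeR adjusted p = 0.722). Car1, the red cell enzyme, had no count. Car13, Car1, Car3 and Car2 lie side by side on chromosome 3 between 14641727 and 14900770, and within this cluster Car3 rose while Car2 was at -0.23 and Car13 at 0.81 on the log2 scale without passing.

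**Figure D2:**
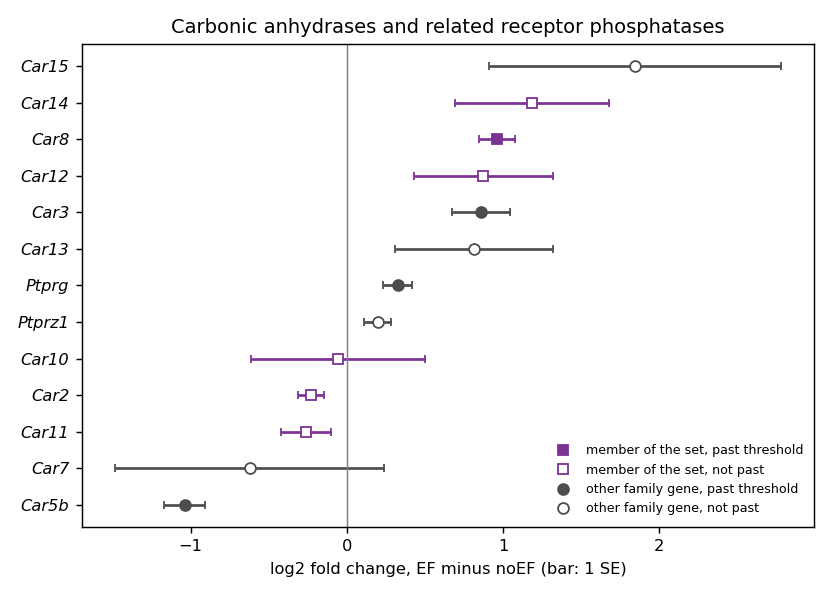
Log2 fold change, EF minus noEF, with 1 SE, of the 11 tested carbonic anhydrases and of Ptprg and Ptprz1; squares are the 8-gene set, circles other family genes, and filled symbols passed the threshold. Car8 at 0.96, Car3 at 0.86 and Ptprg at 0.32 were higher and Car5b at -1.04 was lower, while Car14, Car12, Car13 and Car15 had positive values with wide errors.

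The cell-surface members were rare. Car12, a transmembrane enzyme (ENSMUSG00000032373, chromosome 9, 66713686 to 66766845), had 83 and 89 counts in EF and 40 and 48 counts in noEF. In CPM it was at 2.33 and 2.55 in EF and 1.23 and 1.43 in noEF, a log2 fold change of 0.87 (SE 0.44). Car14, a transmembrane enzyme of neurons and glia (ENSMUSG00000038526, chromosome 3, 95897768 to 95904691), had 88 and 68 counts in EF and 32 and 32 counts in noEF. In both genes each EF library exceeded each noEF library. Car14 was at 2.47 and 1.95 CPM in EF and 0.983 and 0.952 CPM in noEF, a log2 fold change of 1.19 (SE 0.49). Neither was past the threshold, and their fold changes are known with far less precision than that of Car8. Over the alternatives Car12 ran from 0.77 to 0.98 and Car14 from 1.01 to 1.35 on the log2 scale.

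Exons of Car14 overlap those of Aph1a on the opposite strand over 445 of 2543 exonic bases. Aph1a, a subunit of gamma-secretase, had 4298 and 4438 counts in EF and 3965 and 3857 counts in noEF. The sources used here do not say whether counting used strand, so reads from the shared stretch cannot be assigned to either gene and Car14 is uncertain.

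Car9, the transmembrane enzyme known for induction by low oxygen, had 0 and 22 counts in EF and no count in noEF. All 22 counts came from EF 2, at 0.630 CPM, so the value rests on a single library and no fold is given. Car4, a lipid-anchored enzyme known from brain capillaries, had no count in any library, where 3 counts would have been 0.0922 CPM or less. The endothelial marker Cdh5 was also at 0, and the summed level of 6 endothelial markers was 2.49 and 1.75 CPM in EF and 1.29 and 0.743 CPM in noEF. Car15, another lipid-anchored form in mouse, had 22 and 44 counts in EF and 14 and 3 counts in noEF and did not pass (log2 fold change 1.84, SE 0.94, edgeR adjusted p = 0.251). It shares 1253 exonic bases on the same strand with Gm20518, which had 15 and 0 counts in EF and 25 and 59 counts in noEF, the opposite direction. Reads of the shared bases cannot be assigned to either gene, so the Car15 value is uncertain. The secreted form Car6 had 13 counts in EF 2 and none in the other 3 libraries.

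Promoters are shown for Car5b, the family gene that fell, for Car9 as the textbook low-oxygen gene, and for Car12 and Car14, whose values were higher in EF. Each is the stretch of 250 bases before the transcription start in RefSeq (GRCm38.p6), read 5′ to 3′ on the gene's strand. Capitals mark the core of the hypoxia response element, searched as ACGTG or GCGTG on both strands.
Car5b, chrX:164028011-164028260, minus strand: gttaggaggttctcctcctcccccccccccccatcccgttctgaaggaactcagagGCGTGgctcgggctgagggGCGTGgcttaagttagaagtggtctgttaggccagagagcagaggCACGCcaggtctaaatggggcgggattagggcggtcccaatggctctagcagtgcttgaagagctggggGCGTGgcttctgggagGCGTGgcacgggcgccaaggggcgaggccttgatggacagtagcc
Car9, chr4:43506776-43507025, plus strand: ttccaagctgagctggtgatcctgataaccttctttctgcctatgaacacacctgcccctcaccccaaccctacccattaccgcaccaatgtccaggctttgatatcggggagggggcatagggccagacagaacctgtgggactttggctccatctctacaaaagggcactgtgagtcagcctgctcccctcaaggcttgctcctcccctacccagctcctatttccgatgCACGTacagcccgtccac
Car12, chr9:66713436-66713685, plus strand: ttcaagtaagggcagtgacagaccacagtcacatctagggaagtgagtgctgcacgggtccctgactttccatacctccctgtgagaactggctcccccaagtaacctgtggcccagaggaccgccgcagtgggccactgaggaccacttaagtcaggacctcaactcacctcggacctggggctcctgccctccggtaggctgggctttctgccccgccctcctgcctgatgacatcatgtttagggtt
Car14, chr3:95904686-95904935, minus strand: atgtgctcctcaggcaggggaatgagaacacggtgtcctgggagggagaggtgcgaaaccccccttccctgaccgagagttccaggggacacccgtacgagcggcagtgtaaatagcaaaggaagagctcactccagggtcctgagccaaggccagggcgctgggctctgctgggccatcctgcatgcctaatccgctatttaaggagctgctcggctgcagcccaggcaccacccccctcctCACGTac
The Car5b window held 5 such cores, the first letter of each lying 194, 175, 130, 61 and 45 bases before the start, Car9 held 1 at 18 bases and Car14 held 1 at 7 bases, while Car12 held 0. Of all 32851 RefSeq windows of this length 38.6% held at least 1 core and 1.01% held 5 or more. RefSeq windows matched 11 of the 16 carbonic anhydrase genes by symbol, and Car1, Car2, Car3, Car8 and Car13 were not among them. A match describes letters in the window and is not evidence of binding.

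Per length, the order of the genes was not the same in both groups. On the scale of CPM per kb of exon, EF ran Car2 (116), Car8 (15.8), Car11 (8.88), Car3 (6.12) and Car5b (2.95). In noEF the order was Car2 (136), Car11 (10.6), Car8 (8.09), Car5b (6.06) and Car3 (3.38). None of these neighbours overlapped within a group. Per length, Car8 thus stood above Car11 in EF and below it in noEF, and Car3 likewise changed places with Car5b. The per-length ratio of Car8 to Car11 was 1.91 and 1.65 in EF and 0.654 and 0.890 in noEF. Their count ratio was 3.81 and 3.31 in EF and 1.31 and 1.78 in noEF, so by counts Car8 was above Car11 in every library. For Car3 to Car5b the count ratio was 1.04 and 0.831 in EF and 0.239 and 0.263 in noEF. Both changes of place depend on the exon lengths used.

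All other tested carbonic anhydrases were below 1 CPM per kb. In EF these ran Car14 (0.868), Car13 (0.831), Car15 (0.492), Car12 (0.321), Car10 (0.194) and Car7 (0.129). Car14 and Car13 overlapped, as did Car15 with Car12 and Car10 with Car7. In noEF they ran Car13 (0.472), Car14 (0.380), Car10 (0.202), Car7 (0.199), Car12 (0.175) and Car15 (0.136), and Car10 overlapped with Car7 and Car12 with Car15. Levels per length use the union of annotated exons, so a gene expressed from a short isoform is understated.

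**Figure D3:**
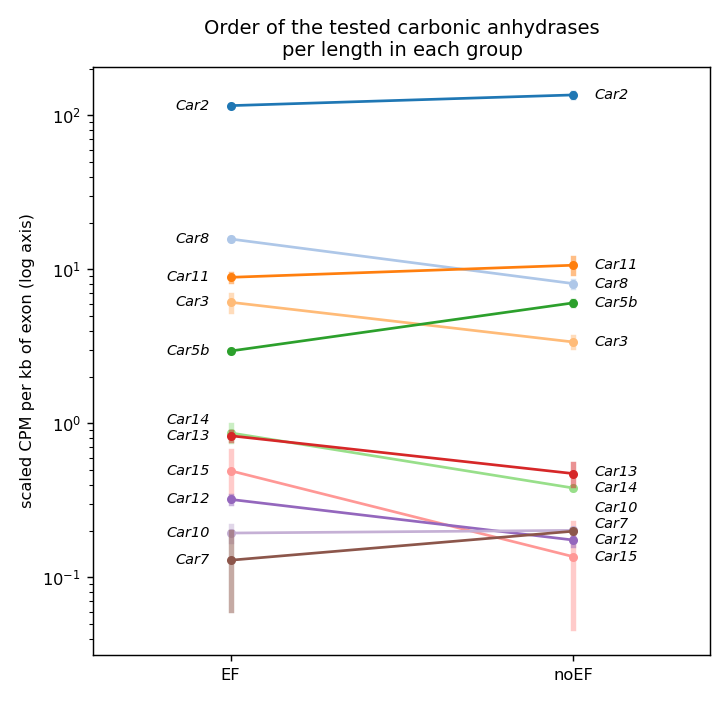
Scaled CPM per kb of exon (log axis) of the 11 tested carbonic anhydrases in EF (left) and noEF (right); points are group means and thick bars span the 2 libraries. The line of Car8 crosses that of Car11 and the line of Car3 crosses that of Car5b, with Car8 at 15.8 in EF and 8.09 in noEF.

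Ptprz1 and Ptprg, receptor tyrosine phosphatases with an inactive carbonic anhydrase domain in their extracellular part, were measured beside the enzymes. Ptprz1, a marker of neural progenitors and glia, had 2509 and 2499 CPM in EF and 2030 and 2340 CPM in noEF and did not pass (log2 fold change 0.20, SE 0.085, edgeR adjusted p = 0.170). It passed under scaling by library totals (edgeR adjusted p = 0.0415) and without noEF 2 (edgeR adjusted p = 0.0407). Ptprg rose to 103 and 97.7 CPM in EF, against 77.2 and 83.0 CPM in noEF (log2 fold change 0.32, SE 0.093, edgeR adjusted p = 0.0412). All EF libraries were above all noEF libraries in both genes. The Ptprg call was lost without EF 1 (edgeR adjusted p = 0.267), without EF 2 (0.0773), without noEF 1 (0.173), with the replicate block (0.0926) and with the length and GC trend removed (0.0856), and its 12 alternatives spanned adjusted p-values of 0.0102 to 0.267. Whether Ptprg and Ptprz1 differed was not tested.

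None of the tested transporters that carry the products of the enzymes passed. Of 14 bicarbonate transporter genes 7 were tested and 0 passed by edgeR, DESeq2 or limma-voom (1 at an unadjusted edgeR p under 0.05), against 8.82% of all tested genes, with a median log2 fold change of 0.13. Slc4a4, the sodium bicarbonate cotransporter of glia, was at 767 and 775 CPM in EF and 703 and 817 CPM in noEF, and its groups overlapped. The closest to the threshold was Slc4a7, at 77.7 and 71.0 CPM in EF and 60.4 and 65.8 CPM in noEF (edgeR adjusted p = 0.169). Of 16 proton and lactate transporter genes 12 were tested and 0 passed by edgeR, DESeq2 or limma-voom (2 at an unadjusted edgeR p under 0.05), with a median of 0.23. With the length and GC trend removed, 1 of them was higher. Of the 12 tested, 10 had a log2 fold change above 0. The 2 at an unadjusted p under 0.05 were Slc16a3 and Slc9a5. Slc16a3 was rare, at 1.15 and 1.55 CPM in EF and 0.246 and 0.535 CPM in noEF (log2 fold change 1.78, SE 0.76, edgeR adjusted p = 0.165). Slc9a5 was at 6.98 and 5.50 CPM in EF and 4.46 and 3.54 CPM in noEF (0.64, SE 0.27, edgeR adjusted p = 0.163). Slc16a1, a lactate carrier, was at 165 and 166 CPM in EF and 148 and 167 CPM in noEF, a log2 fold change of 0.071 (SE 0.089).

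Genes around the partner of Car8, the inositol trisphosphate receptor, were followed through a list of 26, of which 25 were tested. In this list 2 rose, 0 fell and 23 did not pass, or 8% against 8.82% of all tested genes (3.83% higher and 4.99% lower). The median log2 fold change was 0.13, and 22 of the 25 were above 0. At an unadjusted edgeR p under 0.05, 5 were higher and 0 lower. Itpr1 itself was at 7.73 and 10.4 CPM in EF and 6.36 and 6.42 CPM in noEF. Both EF libraries were above both noEF libraries, but the difference did not pass (log2 fold change 0.51, SE 0.22, edgeR adjusted p = 0.181). Itpr2, the receptor isoform of astrocytes, was at 53.0 and 52.3 CPM in EF and 38.8 and 46.0 CPM in noEF (edgeR adjusted p = 0.114). The genes that rose act upstream of the receptor. They were Grm5, a metabotropic glutamate receptor gene, at 352 and 334 CPM in EF and 201 and 243 CPM in noEF (log2 fold change 0.63, SE 0.096, edgeR adjusted p = 0.00117), and Gnaq, the G protein subunit that activates phospholipase C, at 91.0 and 80.5 CPM in EF and 65.8 and 68.7 CPM in noEF (log2 fold change 0.35, SE 0.099, edgeR adjusted p = 0.0398). Gnaq lost its call without EF 1 (edgeR adjusted p = 0.375), without noEF 1 (0.105) and with the replicate block (0.0792), and its 12 alternatives spanned 0.00787 to 0.375.

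For Car10 and Car11, 18 neurexin and neurexin ligand genes were followed and 16 were tested. Of these 1 fell, 0 rose by edgeR and 15 did not pass, or 6.25% against 8.82% of all tested genes (3.83% higher and 4.99% lower). The median log2 fold change was -0.0023. At an unadjusted edgeR p under 0.05, 3 were higher and 2 lower, and DESeq2 and limma-voom each called 1 higher. In edgeR 1 was higher with library totals, with no filter, with the floor of 1 CPM, without EF 2 and with the length and GC trend removed, and 2 without noEF 2. Nrxn2 was at 229 and 206 CPM in EF and 182 and 198 CPM in noEF and did not pass (edgeR adjusted p = 0.206). Nrxn3 was rare and fell to 1.71 and 1.20 CPM in EF, against 3.44 and 3.81 CPM in noEF (log2 fold change -1.31, SE 0.39, edgeR adjusted p = 0.0497). That call was lost in 8 of its 12 alternatives, among them each removal of a single library (adjusted p = 0.0661 by edgeR without EF 1, 0.169 without EF 2, 0.0881 without noEF 1 and 0.111 without noEF 2), and the 12 spanned 0.0152 to 0.169.

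Genes known to respond to low oxygen, as Car9 and Car12 are, were followed through a list of 20, all tested. In this list 4 rose, 0 fell and 16 did not pass, or 20% against 8.82% of all tested genes (3.83% higher and 4.99% lower). The median log2 fold change was 0.079, and 11 of the 20 were above 0. At an unadjusted edgeR p under 0.05, 5 were higher and 0 lower. Egln3, an oxygen-sensing prolyl hydroxylase, had 29.5 and 25.8 CPM in EF and 16.3 and 13.2 CPM in noEF, and P4ha1 had 102 and 98.5 CPM in EF and 70.8 and 73.6 CPM in noEF. Ldha was at 755 and 773 CPM in EF and 629 and 587 CPM in noEF, and Pdk1 at 26.6 and 27.2 CPM in EF and 19.8 and 19.2 CPM in noEF. The groups did not overlap in any of the 4, which held for 54.4% of all tested genes. Nothing is read from this, since the 4 were picked as past the threshold. On the log2 scale Egln3 rose by 0.91 (SE 0.16, edgeR adjusted p = 0.00255), and P4ha1, a collagen prolyl hydroxylase, by 0.47 (SE 0.092, edgeR adjusted p = 0.00517). Ldha, lactate dehydrogenase A, rose by 0.33 (SE 0.080, edgeR adjusted p = 0.0188) and Pdk1, a kinase that restrains pyruvate dehydrogenase, by 0.46 (SE 0.14, edgeR adjusted p = 0.0495). Vegfa and Slc2a1, other targets of this response, were at -0.11 and -0.039 and did not pass. Egln3 and P4ha1 passed in all 12 alternatives. Ldha did not pass without EF 1, without EF 2, without noEF 2 or with the replicate block (edgeR adjusted p = 0.103, 0.0996, 0.0715 and 0.062). Pdk1 did not pass when any single library was left out (edgeR adjusted p = 0.112 to 0.173), nor in 3 other alternatives.

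**Figure D4:**
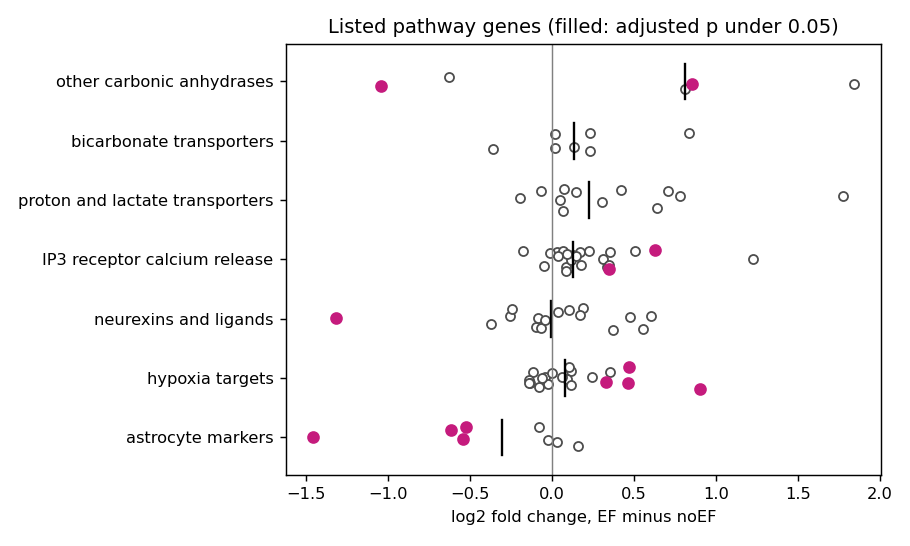
Log2 fold change, EF minus noEF, of each tested gene among the other carbonic anhydrases, the listed pathways and the astrocyte markers; filled points passed the adjusted threshold and black bars are medians. Of the tested genes, 0 of 7 bicarbonate and 0 of 12 proton and lactate transporters passed. So did 2 of 25 in the calcium release list, 1 of 16 neurexins and ligands and 4 of 20 low-oxygen genes. Among astrocyte markers 4 of 8 passed and among other carbonic anhydrases 2 of 5, where 8.82% of all tested genes passed.

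The genes whose pattern over the 4 libraries was most like that of Car8 were found among 12697 genes with a mean of at least 1 CPM, by the distance between log2 CPM profiles centred on each gene's mean. On that scale Car8 was at 0.51 and 0.46 in EF and -0.55 and -0.41 in noEF. The closest was Fancd2, a DNA crosslink repair gene, at a distance of 0.0506 with 20.0 and 19.5 CPM in EF and 9.37 and 10.8 CPM in noEF. Txnip, an arrestin-like regulator of glucose uptake, followed at 0.0608 with 125 and 121 CPM in EF and 57.3 and 65.6 CPM in noEF. Next came Rrm2, a ribonucleotide reductase subunit, at 0.0660, Cntrob, a centriole protein gene, at 0.0768, and Kif23, a kinesin of cell division, at 0.0790. All 5 had log2 fold changes between 0.90 and 1.00, and 4 libraries give a likeness of profile little beyond the group difference to rest on.

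**Figure D5:**
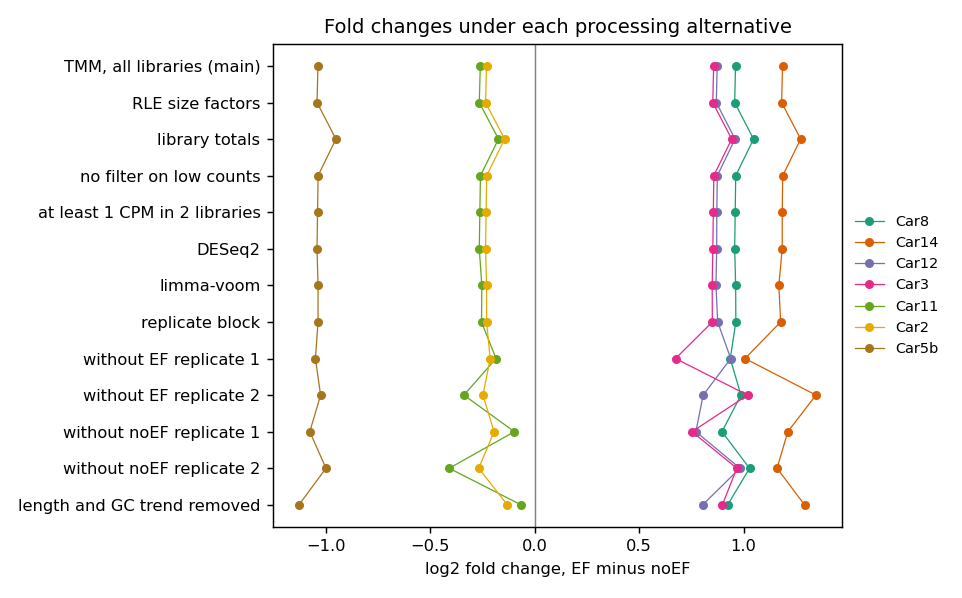
Log2 fold change, EF minus noEF, of 7 carbonic anhydrase genes (x axis) as reported and under 12 processing alternatives (y axis). Car8 stayed between 0.90 and 1.05 and Car5b between -1.13 and -0.95, whereas Car3 ranged from 0.67 to 1.02.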

How the data were processed

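Polyadenylated RNA was sequenced from 2 EF and 2 noEF libraries, with groups and replicate numbers read from their titles; the labels name no batch. The values deposited by the authors are raw counts of reads per gene, judging by their whole numbers and unequal totals. The submitters' processing notes name GRCm38 and, without role or order, StringTie 2.2.1, HISAT2 2.0.4 and DESeq2 1.44.0. They do not give the counting annotation or strand setting. Total counts were 33748880 to 34554537 per library.

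All 14263 genes kept by filterByExpr (minimum count 10, minimum total 15) were fitted in edgeR 4.0.16 (R 4.3.3) with TMM scaling and the robust quasi-likelihood F test, with Benjamini-Hochberg adjustment over all of them and a threshold of 0.05. Log2 fold changes are EF minus noEF, with an SE of the absolute log2 fold change over the root of F. Of a pair of rows named Aldoa, the row with more counts was used. Coordinates, exon unions and overlaps of at least 1 base (bedtools 2.31.1) came from GENCODE M21 (GRCm38), which held 22022 of 22036 Ensembl identifiers. Profiles for likeness were log2 CPM with a prior count of 2.

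The members and the gene lists were chosen with earlier results of these data known. Named genes are all carbonic anhydrases, Ptprz1 and Ptprg, up to 4 called genes with the smallest p in each list, Itpr1, the neurexins and the 5 genes most like Car8, of which some are not reported here; other genes named, among them transporters, markers and Aph1a, were added after their values were seen. Alternatives were RLE size factors, library totals, no filter, a floor of 1 CPM in 2 libraries, limma-voom (limma 3.58.1), DESeq2 1.42.0, a replicate block, leaving out each library, and a loess trend (span 0.5) on exon length and GC content removed from each library. With 1 library left in a group, it was taken to vary like the other group.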

Additional observations from a re-analysis of the deposited data

How the results depend on the processing

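Over the 12 alternatives set at the start, the log2 fold change of Car8 was 0.90 to 1.05, given as a description since Car8 was chosen with this comparison known. Of 331 values for 28 named genes, 298 kept their direction and side of the threshold, 29 lost a call, 2 gained a call and 2 turned direction, both Car10, at 0.028 with library totals and 0.10 without EF 1 (range with 1 library left out -0.23 to 0.10). The number of genes higher in EF was 1138 with library totals and 915 with no filter, against 546 as reported; the number lower was 1203 with no filter, against 712 as reported, where 17318 genes were tested. Library totals gave 505 lower genes, so higher genes made up 69.3% of the calls against 43.4% with TMM, and shifted the median log2 fold change of all genes by 0.0863. Leaving out 1 library at a time gave 217 (without EF 1) to 790 (without noEF 2) higher and 337 (without EF 1) to 1065 (without noEF 2) lower genes.

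With the replicate block 410 genes were higher and 568 lower. The replicate numbers come from the titles and share no stated culture or day. EF 2 bears the library name E3 and noEF 2 the name noEF2, so the names do not give this pairing. The deviations of libraries with the same replicate number correlated at r = -0.0898 and rho = -0.127 across genes. A crossed pairing, chosen after seeing the data, gave 1120 higher and 1505 lower genes of 14263 tested. It called 1 of 6 tested members lower, from which nothing is read. The block lost the calls of Ptprg, Gnaq, Nrxn3 (adjusted p = 0.0536 by edgeR), Ldha and Pdk1 (0.0935) and changed no other call among the 28 genes. The cause of these changes was not tested. The low counts of Car12, Car14, Car10 and Car15 limit what 2 libraries per group can show.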
